A study of Rattus norvegicus with 4 samples.

Results

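The TNF superfamily and NF-kappaB signalling genes were followed in rat epithelium next to a tooth and next to an implant. Members were the genes whose single symbol in the platform annotation belongs to the Tnfsf, Tnfrsf, Tnfaip, Traf, Nfkb, Ikbk, Ripk or Tnip series, with Tnf, Lta, Ltb, Ltbr, Rela, Relb, Birc2, Birc3 and Map3k14 added by name. This rule found 62 of the 14217 genes with a single symbol, on 80 probe sets, and for each gene the brightest of its probe sets, by the mean of the 4 arrays, was used. No probe set carried Rel as its single symbol. The arrays held 2 samples of junctional epithelium, the epithelial collar that attaches the gingiva to the tooth, and 2 of peri-implant epithelium, which lines the soft tissue facing a titanium alloy implant. All samples came by laser microdissection from male Sprague-Dawley rats that were 4 weeks old when a left upper first molar was extracted and an implant placed, and 20 rats were killed 4 weeks later. Both groups carry the same treatment label of extraction and implant placement. The number of animals behind each sample, and whether samples were pooled, could not be learned from the sources used here, so the p-values measure only the spread between these samples. The question is how gene expression in the epithelium at an implant compares with that at a tooth.

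Cytokines of the TNF superfamily bind receptors of the TNF receptor superfamily, which pass the signal through TRAF adaptors, cIAP ubiquitin ligases and RIP kinases to the IkappaB kinase complex. In resting cells the NF-kappaB dimers are held back by IkappaB proteins, whose degradation lets the dimers enter the nucleus. Genes for IkappaB-alpha, A20, the NF-kappaB precursor subunits and cIAP2 are themselves textbook NF-kappaB targets, so that the pathway induces its own inhibitors. In gingiva the pathway is known for its part in the epithelial response to bacteria and in periodontal inflammation.

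Of the 62 members, 14 were higher and 3 lower in peri-implant than in junctional epithelium, and 45 did not pass the test. Those that rose included the NF-kappaB subunit genes Nfkb1 and Nfkb2 and the IkappaB genes Nfkbia, Nfkbib and Nfkbiz. The A20 gene Tnfaip3 and the cIAP2 gene Birc3 rose as well. Rises of these genes lay between 1.86-fold and 3.25-fold, and the subunit genes Rela and Relb did not pass. The others that rose were Tnfsf13, Tnfrsf14, Trafd1, Ripk1, Ripk3, Tnfaip8 and Tnfaip8l3, and those that fell were Tnfrsf12a, Traf6 and Tnfaip1. Among all genes, 7.39% rose and 5.34% fell, against 22.6% and 4.84% of the members. The test was limma with an intensity trend in the variance prior, with Benjamini-Hochberg adjustment over all 14217 genes at a threshold of 0.05. With limma's default prior, 0 members and 0 genes passed (smallest adjusted p = 0.0898), while 17 of 62 members (27.4%) and 2861 of all genes (20.1%) had an unadjusted p under 0.05. The rise or fall of a gene below is therefore a call of the intensity-trend fit alone. All signals are log2 values, n = 2 arrays per group, and differences are peri-implant minus junctional on the log2 scale with their standard error (SE).

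Brightness bears on such counts, because dim genes vary more between replicates. Bacterial control probe sets reached 6.42 on the log2 scale, which is taken as the background level. The mean of the 4 arrays exceeded it for 42 of the 62 members, of which 13 rose and 3 fell, against 10.1% and 7.6% of the 9506 genes with such a mean. The share that fell among members was near that among all genes. The median difference was 0.47 over the 62 members and 0.05 over all genes, or 0.37 and 0.03 among genes with a mean above background. Arrays of the groups did not overlap for 33 members higher and 9 members lower in peri-implant epithelium, while 31.2% and 25.2% of all genes did so.

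**Figure D1:**
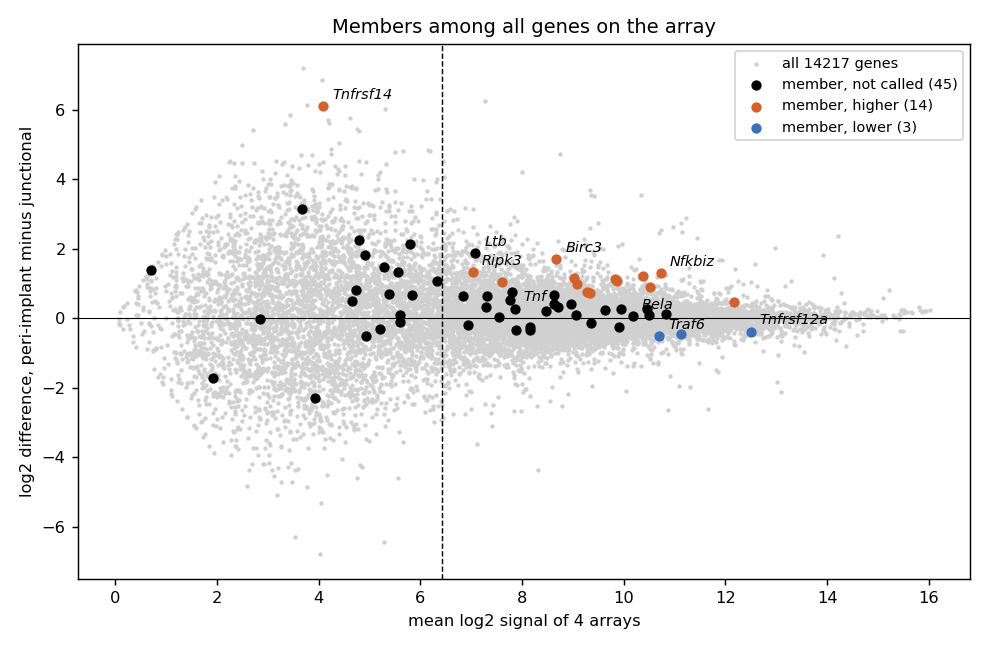
Each point is a gene, with its mean log2 signal over the 4 arrays on the x axis and its log2 difference, peri-implant minus junctional, on the y axis. Grey points are all 14217 genes, coloured points are the 14 members that rose (orange) and the 3 that fell (blue), black points are the other 45 members, and the dashed line marks the background level of 6.42. Most members that rose lie right of that line, and Tnfrsf14 lies left of it.

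Promoter sequences are shown because several members that rose together are known NF-kappaB targets. A promoter in RefSeq (rat assembly GRCr8), from 250 bases before to 50 bases after the gene's first listed start, was found for 49 of the 62 members. The kappaB consensus, a 10-base motif searched on both strands with overlapping matches counted, was present in 5 of the 12 promoters of members that rose (41.7%). It was present in 8 of 35 promoters of members that did not pass (22.9%), in 0 of 2 of those that fell, and in 9.73% of the 11700 promoters of genes on the array. Over the 49 members with a promoter, called or not, 13 held a match (26.5%). Several of the matching genes are textbook NF-kappaB targets, so these shares are no independent test of the pathway. The matches are of letters and not measured binding. The 5 matching promoters of members that rose are printed 5′ to 3′ on the gene's strand, with the matches in capitals. Nfkb1 lies at chr2:226805413-226805712 on the minus strand, Nfkb2 at chr1:255108124-255108423 on the plus strand, Nfkbia at chr6:78597023-78597322 on the minus strand, Nfkbiz at chr11:58251471-58251770 on the plus strand and Tnfaip3 at chr1:15543930-15544229 on the minus strand.
Nfkb1: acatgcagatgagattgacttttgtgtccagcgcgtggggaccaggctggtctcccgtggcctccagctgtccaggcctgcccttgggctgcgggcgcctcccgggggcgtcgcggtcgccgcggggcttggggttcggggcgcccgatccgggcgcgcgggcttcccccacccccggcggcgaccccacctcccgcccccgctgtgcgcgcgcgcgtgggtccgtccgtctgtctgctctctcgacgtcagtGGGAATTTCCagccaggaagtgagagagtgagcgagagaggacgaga
Nfkb2: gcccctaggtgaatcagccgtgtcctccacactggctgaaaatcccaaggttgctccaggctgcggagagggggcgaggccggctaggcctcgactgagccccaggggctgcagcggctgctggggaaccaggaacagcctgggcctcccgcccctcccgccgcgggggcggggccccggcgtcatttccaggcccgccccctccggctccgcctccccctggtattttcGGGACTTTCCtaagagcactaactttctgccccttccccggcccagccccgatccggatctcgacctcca
Nfkbia: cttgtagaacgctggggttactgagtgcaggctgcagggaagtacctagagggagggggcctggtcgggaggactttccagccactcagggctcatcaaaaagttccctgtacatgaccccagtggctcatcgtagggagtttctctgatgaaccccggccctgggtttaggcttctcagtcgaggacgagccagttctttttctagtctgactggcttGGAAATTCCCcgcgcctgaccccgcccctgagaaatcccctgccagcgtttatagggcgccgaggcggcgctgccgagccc
Nfkbiz: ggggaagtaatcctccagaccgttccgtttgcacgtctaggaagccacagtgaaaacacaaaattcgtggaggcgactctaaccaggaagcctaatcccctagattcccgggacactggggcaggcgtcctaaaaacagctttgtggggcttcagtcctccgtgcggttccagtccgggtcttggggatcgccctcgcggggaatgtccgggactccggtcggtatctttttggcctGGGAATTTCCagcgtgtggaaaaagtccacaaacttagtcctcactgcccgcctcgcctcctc
Tnfaip3: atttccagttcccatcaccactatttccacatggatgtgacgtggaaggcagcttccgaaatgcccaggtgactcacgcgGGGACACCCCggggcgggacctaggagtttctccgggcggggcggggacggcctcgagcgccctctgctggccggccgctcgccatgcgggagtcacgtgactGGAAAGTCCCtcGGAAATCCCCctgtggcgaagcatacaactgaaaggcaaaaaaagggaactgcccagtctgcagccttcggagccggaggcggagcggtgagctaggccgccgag
Counted from the start site as 0, the match began at position 3 in Nfkb1, -20 in Nfkb2, -31 in Nfkbia and -13 in Nfkbiz. Tnfaip3 held 3 matches, at -170, -67 and -55. No match was found in the promoters of Nfkbib, Tnfsf13, Ripk1, Ripk3, Trafd1, Tnfaip8 and Tnfaip8l3, which says only that these letters are not in that window, and Birc3 and Tnfrsf14 had no promoter in the table.

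Among subunits and inhibitors of NF-kappaB, 5 of 9 members rose (55.6%) and 0 fell, against 7.39% and 5.34% of all genes. Nfkb1, which encodes the p105 precursor of the p50 subunit, was 9.74 and 9.81 on the junctional arrays and 10.98 and 10.96 on the peri-implant arrays. Both peri-implant arrays lay above both junctional arrays, and the difference of 1.20 (SE 0.11, adjusted p = 0.000307) is 2.3-fold. Nfkb2, which encodes the p100 precursor of p52 in the noncanonical pathway, was 9.26 and 9.25 against 10.44 and 10.33. Its groups did not overlap either, with a difference of 1.13 (SE 0.13, adjusted p = 0.0011).

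Of the genes named as inhibitors, Nfkbia, Nfkbib and Nfkbiz rose, and Nfkbid and Nfkbil1 did not pass. Nfkbia, which encodes IkappaB-alpha, the main inhibitor of the p50 and RelA dimer, was 10.08 and 10.07 on the junctional arrays and 10.97 and 10.96 on the peri-implant arrays, a 1.86-fold difference (0.89, SE 0.11, adjusted p = 0.00119). Nfkbib, which encodes IkappaB-beta, was 9.34 and 9.32 against 10.43 and 10.34 (1.05, SE 0.13, adjusted p = 0.00142). The SD between replicates of Nfkbia was at most 0.0065 in either epithelium, but an SD from 2 arrays is imprecise. The median replicate SD of genes with a mean above 10 was 0.089. Nfkbiz encodes the nuclear protein IkappaB-zeta, which is needed for a subset of NF-kappaB responses. It was 10.14 and 10.02 on the junctional arrays and 11.40 and 11.35 on the peri-implant arrays, a 2.44-fold difference (1.29, SE 0.10, adjusted p = 0.000175). The second probe set of Nfkbiz, at 7.05 and 7.56 against 7.86 and 6.71, had overlapping groups, and with the mean of both probe sets the gene did not pass (adjusted p = 0.102).

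The subunits with a transactivation domain did not pass. Rela, which encodes the p65 subunit of the canonical dimer, was 10.03 and 10.27 on the junctional arrays and 10.13 and 10.27 on the peri-implant arrays, and the groups overlapped. Its difference was 0.05 (SE 0.13, adjusted p = 0.85). Relb, the partner of p52, was 7.37 and 7.69 against 7.09 and 8.03, again with overlap (0.03, SE 0.36, adjusted p = 0.973). Nfkbid, a nuclear IkappaB protein, was 7.04 and 7.03 against 6.92 and 6.72, and Nfkbil1 was 7.99 and 8.77 against 8.43 and 8.72. Neither passed, and whether Nfkb1 and Rela changed unequally was not tested.

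**Figure D2:**
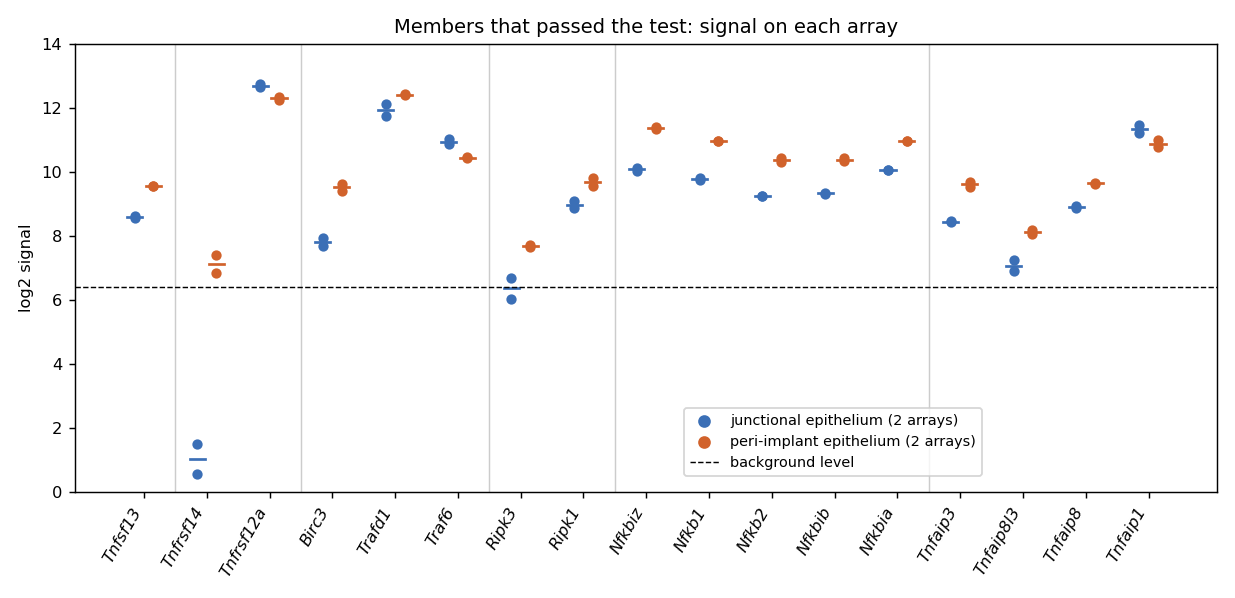
Log2 signal (y axis) of the 17 members that passed the test, 1 point per array, in junctional (blue) and peri-implant (orange) epithelium, ordered by role from ligands to TNF-induced proteins. Short lines are group means and the dashed line is the background level of 6.42. For each of the 17 genes the groups do not overlap, and both junctional arrays of Tnfrsf14 lie far below the dashed line.

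Of 10 members grouped as TNF-induced proteins and A20-binding inhibitors, 3 rose (30%) and 1 fell (10%), against 7.39% and 5.34% of all genes. The group follows the Tnfaip and Tnip symbols, and whether TNF induces each gene was not tested. Tnfaip3, which encodes the ubiquitin-editing inhibitor A20, was 8.43 and 8.47 on the junctional arrays and 9.70 and 9.53 on the peri-implant arrays, a 2.24-fold difference (1.17, SE 0.17, adjusted p = 0.00314). Tnfaip8, a cytosolic protein that opposes apoptosis, was 8.93 and 8.88 against 9.67 and 9.64, and Tnfaip8l3, a phosphoinositide transfer protein of the same family, was 6.91 and 7.24 against 8.19 and 8.07. Tnfaip8 rose by 0.75 (SE 0.15, adjusted p = 0.0143) and Tnfaip8l3 by 1.05 (SE 0.28, adjusted p = 0.0402). Tnfaip1, an adaptor of cullin-3 ubiquitin ligases first found as a TNF-induced transcript, was 11.47 and 11.22 on the junctional arrays and 11.01 and 10.77 on the peri-implant arrays. It fell by 0.45 on the log2 scale (SE 0.12, adjusted p = 0.0439), and its groups did not overlap.

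The A20-binding proteins did not pass. Tnip1, which links A20 to its substrates, was 10.40 and 10.24 on the junctional arrays and 10.58 and 10.61 on the peri-implant arrays (0.27, SE 0.11, adjusted p = 0.149). Tnip2 was 8.56 and 8.52 against 9.13 and 8.60 (0.32, SE 0.22). Tnfaip2 had 4 probe sets, of which the brightest gave 8.43 and 8.15 against 9.05 and 8.88 (0.67, SE 0.20, adjusted p = 0.0588), and 1 of the other 3 had the opposite sign. The hyaluronan-binding protein gene Tnfaip6 was at or below background on all arrays. Tnfaip8l1 and Tnfaip8l2 had differences of 0.63 and 2.12 and did not pass, and Tnfaip8l2 exceeded background on 1 array.

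Among adaptors and ubiquitin ligases, 2 of 13 rose (15.4%) and 1 fell (7.69%), against 7.39% and 5.34% of all genes. Birc3, which encodes the ubiquitin ligase cIAP2, was 7.71 and 7.94 on the junctional arrays and 9.64 and 9.41 on the peri-implant arrays. The groups lay well apart, and the difference of 1.70 (SE 0.20, adjusted p = 0.00113) is 3.25-fold. Its paralog Birc2, which encodes cIAP1, was 9.38 and 9.63 against 9.80 and 9.68 (0.23, SE 0.15, adjusted p = 0.349). Trafd1, a TRAF-type zinc finger protein that restrains Toll-like receptor signalling, was 12.11 and 11.77 against 12.39 and 12.43 (0.47, SE 0.11, adjusted p = 0.0288).

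Traf6, the adaptor of Toll-like and interleukin-1 receptors and of RANK, was 11.03 and 10.88 on the junctional arrays and 10.46 and 10.43 on the peri-implant arrays. It fell by 0.51 on the log2 scale (SE 0.11, adjusted p = 0.0175), a 1.42-fold difference. Of its 4 probe sets, 3 were lower in peri-implant epithelium and 1 differed by 0.07, and with the mean of all 4 the gene did not pass (-0.32, adjusted p = 0.259). Traf3, which restrains the noncanonical pathway, was 8.81 and 8.72 against 9.17 and 9.16 (0.40, SE 0.17, adjusted p = 0.154), and both of its probe sets were higher in peri-implant epithelium. Traf5 was 7.38 and 7.49 against 8.45 and 7.91 (0.75, SE 0.28, adjusted p = 0.116). Traf1, itself an NF-kappaB target, was 5.67 and 4.15 against 6.46 and 5.99, so that only 1 peri-implant array exceeded background.

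The remaining adaptors did not pass. Traf2, the adaptor of TNF receptor 2, was 5.98 and 7.05 against 6.65 and 7.67, with overlap. Traf4, Traf7, Traf3ip1 and Traf3ip2 had differences from -0.25 to 0.41. Traf3ip3, an adaptor of lymphocytes, was 7.78 and 7.23 against 8.22 and 7.85 on its brighter probe set. Its second probe set was below background on both junctional arrays, at 0.00 and 0.44, and 6.38 and 6.58 on the peri-implant arrays, of which 1 exceeded background. It was at least 1.04-fold higher there, so that its large log2 difference rests on signals below background.

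Of 6 kinases, 2 rose (33.3%) and 0 fell, against 7.39% and 5.34% of all genes. Ripk1, which relays signals of TNF receptor 1 to survival or death, was 9.09 and 8.88 on the junctional arrays and 9.83 and 9.56 on the peri-implant arrays (0.71, SE 0.17, adjusted p = 0.0275). Its second probe set was 8.88 and 8.74 against 8.25 and 8.97, with overlap, and with the mean of both the gene did not pass (0.25, adjusted p = 0.381). Ripk3, the kinase of necroptosis, was 6.03 and 6.70 on the junctional arrays and 7.66 and 7.71 on the peri-implant arrays (1.32, SE 0.37, adjusted p = 0.0482). Because 1 junctional array lay below background, it was at least 2.18-fold higher, with signals at or below background raised to that level.

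The other kinases did not pass. Ikbkb, the catalytic subunit of the canonical IkappaB kinase, was 8.36 and 8.28 against 8.04 and 7.93 (-0.33, SE 0.22, adjusted p = 0.367). Its second probe set, below background on all arrays, had the opposite sign (1.95, SE 1.28). With the mean of both, Ikbkb did not pass either (0.81, adjusted p = 0.446). Map3k14, the kinase NIK of the noncanonical pathway, was below background on all arrays. Ripk2, which acts downstream of NOD receptors, was 8.22 and 7.91 against 7.79 and 7.63. Ripk4, a kinase of keratinocyte differentiation, was 10.70 and 10.87 against 10.82 and 10.97, with overlap (0.11, SE 0.11).

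**Figure D3:**
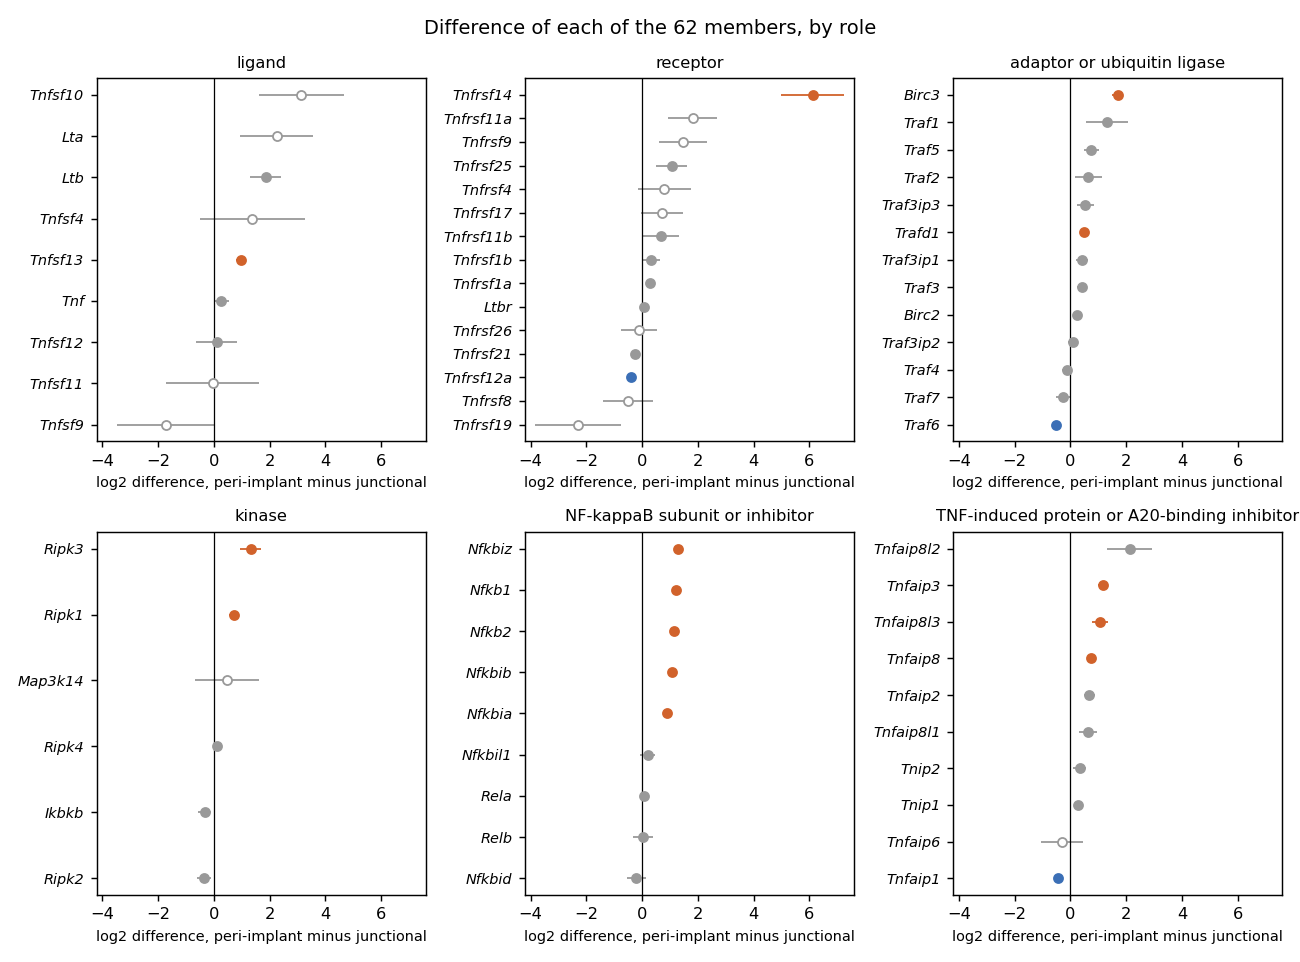
Log2 difference, peri-implant minus junctional (x axis), of each of the 62 members in 6 panels by role, with bars of 1 SE. Orange points rose, blue points fell, grey points did not pass, and open points mark members with no array above background. In the panel of NF-kappaB subunits and inhibitors 5 orange points lie between 0.89 and 1.29, and the ligand and receptor panels hold most of the open points.

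Most ligands lay near or below background. Tnfsf13, which encodes APRIL, a factor for B cell and plasma cell survival, was the 1 ligand of 9 that rose (11.1%, against 7.39% of all genes). It was 8.63 and 8.56 on the junctional arrays and 9.56 and 9.57 on the peri-implant arrays (0.97, SE 0.16, adjusted p = 0.00617), and its second probe set was also higher in peri-implant epithelium (0.63, SE 0.26). Tnf itself was 7.83 and 7.61 on the junctional arrays and 8.28 and 7.71 on the peri-implant arrays, with overlapping groups (0.27, SE 0.28, adjusted p = 0.578). Ltb, the membrane-anchoring chain of lymphotoxin, was 5.18 and 7.12 against 8.13 and 7.89 (1.86, SE 0.56, adjusted p = 0.0631). Its groups did not overlap, and 1 junctional array lay below background. Ltb passed where signals below background were raised to it (1.24, adjusted p = 0.0224).

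The other ligands did not exceed the background level on most arrays. Lta, Tnfsf4, Tnfsf9, Tnfsf10, which encodes TRAIL, and Tnfsf11, which encodes the osteoclast factor RANKL, were at or below background on all 4 arrays. Tnfsf12, which encodes TWEAK, exceeded it on 1 peri-implant array, at 6.45. Differences between these dim signals, from -1.72 to 3.14, had SEs of 0.74 to 1.88 and none passed.

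Of 15 receptors, 1 rose (6.67%) and 1 fell (6.67%), near the 7.39% and 5.34% of all genes. Tnfrsf14, which encodes HVEM, the receptor of LIGHT, was 0.56 and 1.51 on the junctional arrays and 6.86 and 7.42 on the peri-implant arrays (difference 6.11, SE 1.12, adjusted p = 0.00934). Both junctional arrays were below background, so it was at least 1.65-fold higher in peri-implant epithelium. It did not pass once dim signals were raised to the background level (adjusted p = 0.379). Tnfrsf12a, which encodes Fn14, the receptor of TWEAK, was 12.64 and 12.74 on the junctional arrays and 12.25 and 12.35 on the peri-implant arrays. It fell by 0.39 on the log2 scale (SE 0.08, adjusted p = 0.0171), a 1.31-fold difference.

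The classical TNF receptors did not pass. Tnfrsf1a, which encodes TNF receptor 1, was 9.80 and 9.82 on the junctional arrays and 10.11 and 10.04 on the peri-implant arrays (0.27, SE 0.12, adjusted p = 0.19), without overlap. Tnfrsf1b, which encodes TNF receptor 2, was 6.87 and 7.36 against 7.48 and 7.42 (0.33, SE 0.32). The lymphotoxin-beta receptor gene Ltbr was 10.37 and 10.54 against 10.54 and 10.53 (0.08, SE 0.11, adjusted p = 0.721). Tnfrsf21, which encodes death receptor 6, had 2 probe sets that each gave -0.27 (SE 0.13). Tnfrsf25 and Tnfrsf11b, which encodes osteoprotegerin, exceeded background on 1 array each. Tnfrsf4, Tnfrsf8, Tnfrsf9, Tnfrsf11a, Tnfrsf17, Tnfrsf19 and Tnfrsf26 did so on none, and their differences ran from -2.30 to 1.81 without a call.

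Several members had more than 1 probe set, and these did not always go the same way. Of 14 such members, with 32 probe sets, 7 had all probe sets in 1 direction, among them Tnfsf13, Traf1, Traf3 and Tnfrsf21. Nfkbiz, Ripk1 and Traf6, which passed on their brightest probe set, had a second one close to 0 or of the opposite sign. The other 48 members had 1 probe set.

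**Figure D4:**
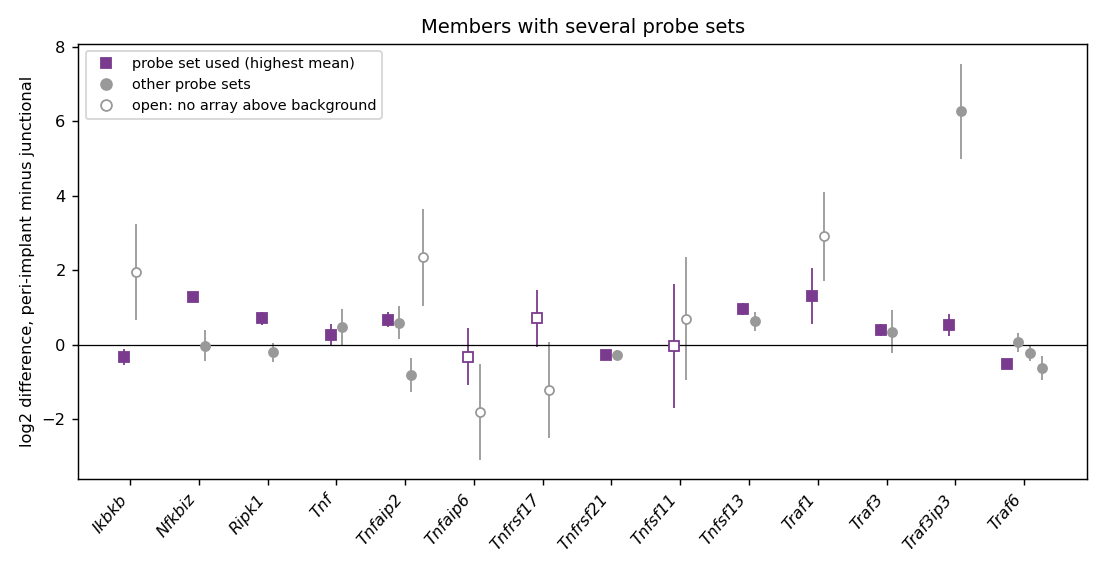
Log2 difference, peri-implant minus junctional (y axis), of each probe set of the 14 members with several, with bars of 1 SE. Squares are the probe sets used, circles the others, and open symbols had no array above background. The symbols of Tnfrsf21 coincide, while those of Ripk1, Nfkbiz and Tnfaip2 spread to both sides of 0 or to it.

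With only 2 arrays per group, each call was refitted without 1 array at a time. In such a fit the lone array of a group is assumed to vary like the others. Nfkb1, Nfkb2, Nfkbia, Nfkbib, Nfkbiz and Birc3 passed in all 4 of these fits, with adjusted p from 0.0159 to 0.0461. Tnfaip3 passed only without peri-implant replicate 2 (adjusted p = 0.0481, otherwise up to 0.0634). Tnfrsf14 passed without junctional replicate 1 or 2 (smallest adjusted p = 0.0416) and not without peri-implant replicate 1 (adjusted p = 0.103) or 2 (adjusted p = 0.119). The other 9 passed in none of them, with adjusted p from 0.0546 to 0.285, and this includes all members that fell. Without 1 array, 6 to 8 members rose and 0 fell.

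Other genes of the pathway were taken from textbook lists, which were chosen with earlier results of these data known. Shares called in them are therefore no independent test of the pathway. Of 38 targets of NF-kappaB in epithelium and leukocytes, 14 rose (36.8%) and 0 fell, against 7.39% and 5.34% of all genes, with a median difference of 0.90. The other 24 did not pass. The 6 named next had the largest differences among passing targets above background on at least 1 array of each group. Saa3, an acute phase protein, was 8.60 and 8.54 on the junctional arrays and 12.12 and 12.10 on the peri-implant arrays, an 11.6-fold difference. Sod2, the mitochondrial superoxide dismutase, rose from 11.03 and 11.05 to 12.78 and 12.63. Icam1, an adhesion molecule for leukocytes, rose from 8.28 and 8.03 to 9.76 and 9.82. Zc3h12a, which encodes Regnase-1, an RNase that degrades cytokine transcripts, rose from 8.74 and 8.73 to 10.37 and 10.30. The chemokine gene Cxcl2 rose by 2.12, and Ccl2, with 1 junctional array below background, was at least 4.8-fold higher. The list holds genes that other pathways induce as well.

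Of the other signalling genes, 35 of 43 listed were measured, 1 rose (2.86%) and 2 fell (5.71%), and the median difference was -0.07. Among all genes, 7.39% rose and 5.34% fell, and the share that fell in the list was near the latter. Bcl3, an IkappaB protein that works with p50 and p52 in the nucleus, rose from 9.56 and 9.46 to 10.49 and 10.28 (adjusted p = 0.0047). Map3k7, which encodes TAK1, the kinase that activates the IkappaB kinase complex, fell from 10.06 and 9.95 to 8.59 and 7.02 (adjusted p = 0.0106), with peri-implant arrays far from each other. Erc1, a scaffold of that complex, fell from 8.60 and 8.89 to 7.67 and 7.67 (-1.07, SE 0.22, adjusted p = 0.0172). Bcl3 has 3 probe sets and Erc1 has 2, and only the brightest of each is given here. Of 11 measured TNF family genes with other names, from 16 listed, 1 rose (9.09%) and 0 fell. The share that rose was near the 7.39% of all genes. The gene was Adam17, the protease that sheds TNF from the cell surface, from 10.29 and 10.25 to 10.70 and 10.90. Whether the lists differ from each other was not tested.

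**Figure D5:**
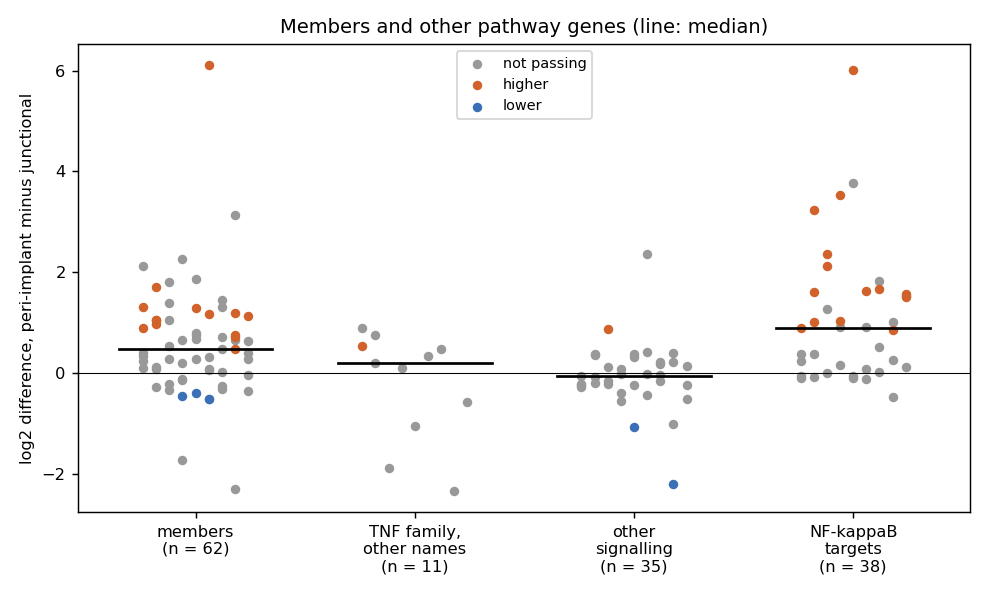
Log2 difference, peri-implant minus junctional (y axis), of the 62 members and of the genes in the 3 other lists, 1 point per gene, with horizontal lines at the medians. Orange points rose, blue points fell and grey points did not pass. The medians are 0.47, 0.20, -0.07 and 0.90 from left to right.

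Markers of leukocytes in general and of neutrophils were also higher in peri-implant epithelium, while those of macrophages, T cells and B cells rose in part or not at all. Of the general leukocyte markers 4 of 4 rose, and their summed linear signal was 1654 and 1368 on the junctional arrays and 3318 and 3535 on the peri-implant arrays. Of the neutrophil markers 5 of 5 rose, with sums of 38391 and 38665 against 103336 and 89952. Most of these sums came from S100a8 and S100a9, at 12.9 or more on every array, while Cxcr2, Csf3r and Fcgr3a reached at most 10.96. Whether S100a8 and S100a9 came from neutrophils was not tested. Of the macrophage markers 2 of 6 rose and 1 fell. Of 4 measured T cell markers 1 rose, with sums of 137 and 162 against 369 and 409. Cd2 was below background on both junctional arrays and 7.57 and 7.90 on the peri-implant arrays, Cd3g exceeded background on the peri-implant arrays only, and Cd3d and Cd3e lay below it on all arrays, as did both measured B cell markers. Of the genes listed for Langerhans cells, Cd207 had no probe set under this symbol and only Cd1d1 was measured. Cd1d1 rose narrowly (adjusted p = 0.0497), with 1 junctional array below background. Whether its signal came from Langerhans cells was not tested. Of 4 bone cell markers 1, Bglap, fell. None of 3 measured endothelial markers passed. Epithelial markers had sums of 156571 and 161151 on the junctional arrays and 193325 and 162675 on the peri-implant arrays, with 1 of 6, Krt15, rising. Fibroblast markers were above background in every sample, with sums of 42488 and 42728 against 48911 and 48605, and 1 of 5, Col1a1, rose. The junctional epithelium markers Odam and Amtn had no probe set under these symbols, so the identity of the junctional samples was not checked by them. No marker was at 0 on all arrays. In bulk samples, more cells of a type and more RNA per cell cannot be told apart, and the part of leukocytes in the differences of the members was not tested.

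Between 54.6% and 56.8% of probe sets exceeded background on each array, and the signal of the 3' probe set of Gapdh exceeded that of the 5' one by 0.52 to 0.68, which reflects how intact the RNA was. The number of probe sets at the floor of 0 differed between replicates, with 729 and 378 on the junctional arrays 1 and 2 and 666 and 382 on the peri-implant arrays. Precision is limited by the 2 arrays per group.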

How the data were processed

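Affymetrix-type rat arrays of 4 laser-microdissected samples were analysed, 2 per epithelium, grouped and numbered by their titles. The deposited values are log2 signals per probe set. The sources used here do not give the authors' software or normalization. On each array the mean of the linear values, after trimming 2% at each end, was 500.19, and linear values had a floor of 1. No array was normalized again. Control probe sets (57) were left out. Symbols came from the platform annotation (20826 probe sets with 1 symbol, 436 with several and 9780 with none), and all 62 member symbols are current in RefSeq.

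Differences were tested with limma 3.58.1 in R 4.3.3 (lmFit, then eBayes with trend and robust prior, two-sided, Benjamini-Hochberg over 14217 genes). The median replicate SD was 1.07 for genes with a mean at or below background and 0.089 above 10, which is why the prior follows intensity. The choice was made with an earlier result known, that the default prior called no gene. The members and lists were chosen with earlier results of these data known. The background level is the highest value among 27 control probe sets for bacterial genes that were not clearly spiked. Their median was 3.43, so a signal under the background level can still exceed most of these controls. Named were all members that passed, Tnf, Rela and Tnfrsf1a, the 3 of each role with the highest mean or largest difference, and others by role. Of each other list, up to 6 passing genes above background on at least 1 array of each group were named, by size of difference.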

Additional observations from a re-analysis of the deposited data

How the results depend on the processing

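The default variance prior called 0 members, 0 other pathway genes and 0 genes in all in either direction. The mean of all probe sets left 1 member and 1 other pathway gene lower, and raising dim signals to background left 1 other pathway gene lower. Leaving out 1 array gave 6 to 8 members higher and 0 lower, 9 to 11 other pathway genes higher and 0 to 1 lower, and 170 to 231 genes higher and 50 to 210 lower in all. The other settings that kept all arrays gave 12 to 17 members higher and 3 lower, except the mean of all probe sets with 12 and 1. No called difference changed sign in any setting. Of the 17 members that passed, 10 did so in all 6 settings that kept all arrays and the trend. Tnfaip8l3 and Ripk3 did not pass without a robust prior or with quantile normalization. Tnfaip1 and Ripk3 did not pass with the mean of all probe sets (adjusted p = 0.0521 and 0.0561), though each has 1 probe set, and their own values did not change. Traf3ip3 passed with that mean (3.40, adjusted p = 0.0115), which rests on a probe set below background on 3 of 4 arrays.

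Deviations of arrays with the same replicate number correlated at 0.018 over all genes and 0.061 over genes above background, so the numbers are not taken to pair the samples. With the replicate number as a block, 17 members were higher and 3 lower, 23 and 3 other pathway genes, and 1410 and 1060 of all genes, and Ltb, Tnfaip2 and Tnfaip8l2 also passed.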
